A study of Mus musculus with 13 samples.

Results

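The 8 genes described here are the xenobiotic receptors CAR (Nr1i3) and PXR (Nr1i2), their shared partner RXRα (Rxra), the Cyp2b enzymes that CAR is best known for inducing (Cyp2b10, Cyp2b9 and Cyp2b13), the reductase that powers these enzymes (Por) and the first enzyme of haem synthesis (Alas1). They were taken by gene symbol from the 27141 genes of the count and FPKM tables, and all 8 were found. The libraries came from damaged hepatocytes (dHeps), isolated by collagenase perfusion from wild-type mice whose livers had been injured chronically with carbon tetrachloride (CCl4), and kept for 16 days in serum-free Hepatocyte Maintenance Medium. The control group received the solvent dimethyl sulfoxide (DMSO). The 5C group received GSK429286A (G, an inhibitor of the kinase ROCK), CID755673 (C, an inhibitor of protein kinase D), ETC-1002 (E, an activator of AMPK), forskolin (F, an activator of adenylate cyclase) and Salidroside (S, a phenylpropanoid glycoside). The groups 5C-G, 5C-C, 5C-E, 5C-F and 5C-S received the same cocktail without the compound named after the hyphen. Of the 7 groups, 5C-S was represented by 1 library and every other group by 2, which makes 13 in all. Forskolin, given to 5C and to all removal groups except 5C-F, is itself known as a PXR activator. No group was cultured from uninjured liver, and the study used a mixture of male and female mice without giving the sex behind a library.

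CAR and PXR are nuclear receptors that sense drugs, bile acids and steroids in hepatocytes. Each binds DNA as a heterodimer with RXRα and switches on cytochrome P450 enzymes, conjugating enzymes and transporters. CAR is held in the cytoplasm until an activator, or loss of EGFR signalling, lets it enter the nucleus, so its transcript need not follow its activity. In mouse liver Cyp2b10 is the classical CAR target and Cyp3a11 the classical PXR target, although each receptor can act on both genes. Cyp2b9 and Cyp2b13 are Cyp2b enzymes that are typical of female liver. Every microsomal P450 needs electrons from POR and a haem group, and ALAS1 catalyses the rate-limiting step of hepatic haem synthesis.

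The 3 Cyp2b genes lie in the same orientation on chromosome 7 (GRCm39, positions from the GENCODE annotation). Cyp2b10 spans 25597045 to 25626049, Cyp2b13 spans 25760922 to 25795622 and Cyp2b9 spans 25872835 to 25910086, all on the plus strand. The phenobarbital-responsive region upstream of Cyp2b10 is known to carry a direct repeat of nuclear receptor half-sites, and this stretch is shown because the Cyp2b genes behaved so differently in their amount. The search was for AGGTCA, then 4 bases of any kind, then AGTNCA, on either strand of the 3000 bases upstream of a gene's start. Of 21768 protein-coding genes, 54 held this repeat (0.248%), and Cyp2b10 was the only one of the 8 members that did. The pattern admits the repeat already known from the Cyp2b10 region. The match there was therefore given in advance, is not a test and does not set Cyp2b10 apart. Its repeat lay at chr7:25594747-25594762, starting 2298 bases upstream, and read on the minus strand. Below, each window is written 5′ to 3′ on the gene's strand, with the 16 bases of the repeat, or of the aligned stretch, in capitals.
Cyp2b10 (chr7:25594742-25594801): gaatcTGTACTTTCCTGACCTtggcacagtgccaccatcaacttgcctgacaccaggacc
Cyp2b13 (chr7:25760089-25760146): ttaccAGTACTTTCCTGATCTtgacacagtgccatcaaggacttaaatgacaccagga
Cyp2b9 (chr7:25871991-25872048): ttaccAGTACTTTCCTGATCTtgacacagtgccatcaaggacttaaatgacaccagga
The best matches to the Cyp2b10 window upstream of Cyp2b13 and Cyp2b9 started 833 and 844 bases before the gene and were identical to each other. Each differed from the Cyp2b10 window by 15 edits. Within the 16 capital bases the differences were T1A and C14T, counted from 1 at the 5′ end of the capitals, with the Cyp2b10 base first. Such a match is a description of letters in a window and says nothing of which protein was bound in these cells.

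Cyp2b10 (ENSMUSG00000030483) was the member called in every tested comparison. FPKM, the unit used here to compare levels between genes, is the read count scaled by transcript length and by the total count of a library. Cyp2b10 stood at 9.90 and 8.70 FPKM in the DMSO libraries and at 88.3 and 78.0 FPKM in the 5C libraries, so that the groups lay far apart. A call below means an adjusted p under 0.05 (edgeR quasi-likelihood test, Benjamini-Hochberg over 19884 genes) together with a log2 fold change beyond 1. By that rule Cyp2b10 rose in 5C, with a log2 fold change of 3.08 ± 0.23 (SE) and an adjusted p of 1.30e-07, an 8.48-fold difference.

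Leaving out the ROCK inhibitor removed this rise and more. The 5C-G libraries held 3.58 and 3.64 FPKM of Cyp2b10, below every other library of the series. Against 5C it fell by 4.39 ± 0.24 (SE) on the log2 scale (adjusted p = 1.26e-08), and against DMSO it fell by 1.30 ± 0.22 (adjusted p = 0.00234). Removing the protein kinase D inhibitor or the AMPK activator left Cyp2b10 between DMSO and 5C. The 5C-C libraries held 24.8 and 27.1 FPKM, a log2 fold change of -1.51 ± 0.21 against 5C (adjusted p = 8.84e-05). The 5C-E libraries held 30.7 and 21.6 FPKM, a log2 fold change of -1.74 ± 0.22 against 5C (adjusted p = 0.000123). The libraries of 5C-C and 5C-E overlapped, and both groups remained above DMSO, with log2 fold changes of 1.57 ± 0.22 (adjusted p = 4.43e-05) and 1.34 ± 0.22 (adjusted p = 0.000408).

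Removing forskolin went the other way. Cyp2b10 reached 194 and 139 FPKM in the 5C-F libraries, the highest of the series, a log2 fold change of 1.11 ± 0.21 against 5C (adjusted p = 0.00417). This call lay close to the fold threshold. The value was 0.86 with an offset for transcript GC and length, 0.79 without 5C-F A and 1.05 without 5C B, and none of these was a call. Against DMSO the 5C-F level was higher by a log2 fold change of 4.19 ± 0.24 (adjusted p = 1.85e-08). The single 5C-S library held 78.5 FPKM, between the values of the 5C libraries, and differed from their mean by a log2 fold change of -0.10, for which no test can be given. From lowest to highest the mean levels of Cyp2b10 ran 5C-G, DMSO, 5C-C, 5C-E, 5C-S, 5C and 5C-F. The neighbours 5C-C and 5C-E overlapped, as did 5C-S and 5C, and the other neighbours lay apart.

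**Figure D1:**
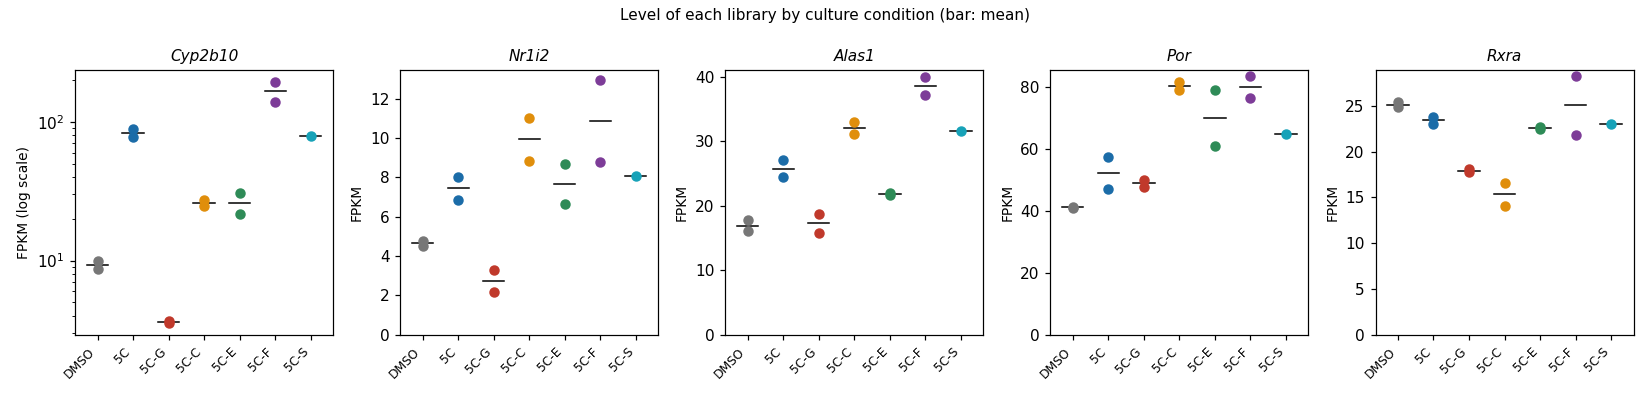
FPKM of each library (points) with the group mean (bar) for the 5 members with more than a trace of reads, by culture condition. The Cyp2b10 axis is logarithmic and spans 3.58 FPKM (5C-G A) to 194 FPKM (5C-F A), whereas the linear axes of Nr1i2, Alas1, Por and Rxra start at 0 and show far smaller differences.

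Of the receptors, PXR (Nr1i2, ENSMUSG00000022809, chromosome 16, 38068685 to 38115216, minus strand) was the transcript that could be measured. The DMSO libraries held 4.53 and 4.79 FPKM and the 5C libraries 8.04 and 6.85 FPKM. These groups did not overlap, but their difference of 0.60 ± 0.24 (SE, log2) missed the threshold (adjusted p = 0.180). Without the ROCK inhibitor the libraries held 3.30 and 2.19 FPKM, the lowest of the series. Nr1i2 fell there by 1.32 ± 0.24 against 5C (adjusted p = 0.000954). It was therefore, besides Cyp2b10, the only member called in 5C-G against 5C. Without 5C-G A, which leaves the 5C-G library with no Cyp2b9 count, Cyp2b9 was called as well (adjusted p = 0.0190, beside 0.326 with all libraries). Against DMSO the 5C-G difference was -0.72 ± 0.24 (adjusted p = 0.0563), and with the GC and length offset it was a call, at -1.02.

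The other removals did not lower the PXR transcript. It stood at 11.0 and 8.85 FPKM in 5C-C, at 6.66 and 8.66 FPKM in 5C-E, at 8.76 and 12.9 FPKM in 5C-F and at 8.06 FPKM in 5C-S. None of these groups differed from 5C by the test, with log2 fold changes of 0.58 (adjusted p = 0.0656), -0.03 (adjusted p = 0.988) and 0.64 (adjusted p = 0.0918) for 5C-C, 5C-E and 5C-F. Against DMSO, however, Nr1i2 was higher in 5C-C by 1.18 ± 0.24 (adjusted p = 0.00100) and in 5C-F by 1.24 ± 0.24 (adjusted p = 0.00229). Short of the fold threshold were the 5C-C value with that GC and length offset (0.76) and with limma on log2(FPKM + 1) (0.94) and the 5C-F value without 5C-F B (0.98). PXR and Cyp2b10 thus parted in 5C-C, where the receptor transcript lay at a mean of 9.94 ± 1.54 FPKM (SD, n = 2) and Cyp2b10 at 25.9 ± 1.65 FPKM, beside 7.44 ± 0.844 and 83.2 ± 7.33 FPKM in 5C.

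CAR (Nr1i3, ENSMUSG00000005677, chromosome 1, 171041506 to 171048270, plus strand) was close to the limit of detection in every group. Its counts in libraries A and B were 12 and 20 in DMSO, 29 and 14 in 5C, 14 and 14 in 5C-G, 0 and 16 in 5C-C, 11 and 2 in 5C-E, and 14 and 27 in 5C-F, and the 5C-S library held 27. These are levels of 0 to 0.196 FPKM, below PXR in each of the 13 libraries. All groups but 5C-E and the neighbouring 5C-G overlapped with the next group in order, and no comparison was a call. Without 5C-C B, which leaves only the 5C-C library with no count, 5C-C against 5C became one (adjusted p = 0.0436, beside 0.355 with all libraries). In 5C against DMSO the log2 fold change was 0.37 ± 1.26 (SE), so that a change of either sign and of several fold lies within the error. Even these few reads are uncertain. How the counting treated reads in bases shared with another gene is not given. Such reads may have been added to Nr1i3 or left out, so its level may be too high or too low. Nr1i3, whose FPKM implies a length of 4421 bases, shares 3501 exon bases with Tomm40l on the opposite strand. Of the 150-base stretches of its longest transcript, 59.2% also occur, in reverse, in Tomm40l transcripts. The library kit does not mark strand, and Tomm40l, a mitochondrial import gene, held 2946 counts over all libraries against 200 for Nr1i3. Its level did not follow that of Nr1i3, since it was highest in 5C-G, at 1.71 ± 0.0375 FPKM (SD, n = 2), beside 0.995 ± 0.242 FPKM in 5C.

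**Figure D2:**
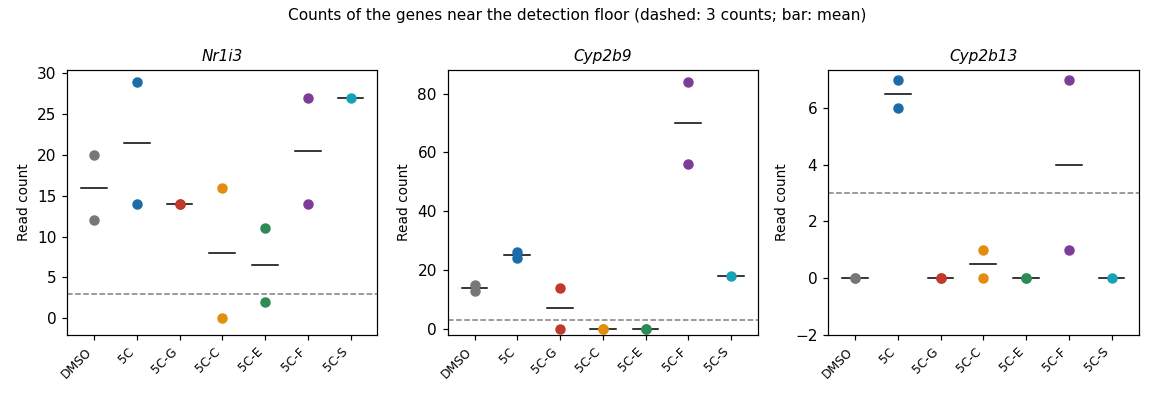
Read counts of each library (points) with the group mean (bar) for Nr1i3, Cyp2b9 and Cyp2b13, by culture condition, with the floor of 3 counts as a dashed line. Cyp2b9 has 0 counts in all 4 libraries of 5C-C and 5C-E and is highest in 5C-F, whereas Nr1i3 does not exceed 29 counts anywhere.

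RXRα (Rxra, ENSMUSG00000015846, chromosome 2, 27566452 to 27653330, plus strand), the partner of both receptors, was far more abundant than either. The DMSO libraries held 25.4 and 24.9 FPKM and the 5C libraries 23.1 and 23.8 FPKM, a log2 fold change of -0.17 ± 0.16 (adjusted p = 0.669). The lowest levels were those of 5C-C, at 16.6 and 14.1 FPKM, and of 5C-G, at 18.1 and 17.8 FPKM. The 5C-C difference from 5C was -0.45 ± 0.16 with an adjusted p of 0.0404, which passes the test but is too small for a call. The remaining groups lay close to 5C, with 22.7 and 22.5 FPKM in 5C-E, 21.8 and 28.3 FPKM in 5C-F and 23.0 FPKM in 5C-S. Rxra was called in none of the comparisons.

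Among the Cyp2b enzymes, Cyp2b10 supplied nearly all reads. Its share of the summed Cyp2b counts ran from 94.6% (5C-G A) to 100% (5C-G B, 5C-C A and both 5C-E libraries). Cyp2b9 (ENSMUSG00000040660) had 13 and 15 counts in DMSO, 24 and 26 in 5C, 14 and 0 in 5C-G, 84 and 56 in 5C-F, and 18 in 5C-S. It had no count in any library of 5C-C or 5C-E. Set against the floor of 3 counts per library, that is at least 9.46-fold lower in 5C-C and at least 8.96-fold lower in 5C-E than in 5C. The 5C-C difference was a call (adjusted p = 0.00800), and the 5C-E difference narrowly was not (adjusted p = 0.0521), although it was with no filter on low counts, with the GC and length offset and in a fit of these 2 groups only (adjusted p of 0.00116 to 0.0497). Against DMSO both were calls, at least 5.07-fold lower in 5C-C (adjusted p = 0.0162) and at least 4.80-fold lower in 5C-E (adjusted p = 0.0468). These calls depended on single libraries. Both 5C-C calls were lost without 5C-C B (adjusted p = 0.0555 against 5C and 0.0891 against DMSO), and the 5C-E call against DMSO was lost without any 1 of the 4 libraries behind it (adjusted p of 0.109 to 0.247).

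Cyp2b13 (ENSMUSG00000040583) was at most a trace. Its counts were 7 and 6 in 5C, 7 and 1 in 5C-F, and 0 and 1 in 5C-C, and it had no count in DMSO, 5C-G, 5C-E or 5C-S. It did not pass the filter on low counts and was not tested, so 7 of the 8 members entered the fit. The mean of 5C was at least 2.27-fold higher than the floor of DMSO. Like Cyp2b10, Cyp2b9 had its highest counts in 5C-F, but its difference from 5C was not a call (1.27, adjusted p = 0.538). It was not detected in 5C-C and 5C-E, where 1490 to 2610 counts of Cyp2b10 remained per library. Reads of the 3 genes can be told apart over most of their length. For each gene 1 chosen transcript was compared. These were 86.5% identical between Cyp2b10 and Cyp2b9, 86.4% between Cyp2b10 and Cyp2b13 and 89.5% between Cyp2b9 and Cyp2b13. No 150-base stretch, the length of a read, of the chosen Cyp2b10 or Cyp2b9 transcript occurred in a transcript of another gene. Of those of Cyp2b13, 5.04% did. With the 3 genes summed, the calls were those of Cyp2b10.

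The enzymes that serve the P450s changed less than Cyp2b10. Por (ENSMUSG00000005514, chromosome 5, 135698887 to 135764182, plus strand) was the most abundant member of the supporting set, at 41.0 and 41.2 FPKM in DMSO and 57.4 and 46.9 FPKM in 5C. The difference of 0.27 ± 0.17 (log2) missed the threshold (adjusted p = 0.483). Its highest levels were not in 5C but in 5C-C, at 79.2 and 81.7 FPKM, in 5C-F, at 76.4 and 83.5 FPKM, and in 5C-E, at 60.9 and 79.2 FPKM. Against 5C the log2 fold change was 0.79 ± 0.17 in 5C-C (adjusted p = 0.00204) and 0.72 ± 0.17 in 5C-F (adjusted p = 0.0170), both short of the fold threshold. Against DMSO it was 1.06 ± 0.18 in 5C-C (adjusted p = 0.000204), which is a call. This value became 0.73 with that GC and length offset, and the 5C-C difference from 5C became 0.29. The call against DMSO was also lost when libraries were scaled by total counts only (0.97) and with limma on log2(FPKM + 1) (0.95) and log2(FPKM + 0.1) (0.97). In 5C-G and 5C-S Por stood at 47.7 and 50.1 FPKM and at 64.8 FPKM.

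Alas1 (ENSMUSG00000032786, chromosome 9, 106110642 to 106135734, minus strand) had the order DMSO, 5C-G, 5C-E, 5C, 5C-S, 5C-C and 5C-F from lowest to highest mean. It stood at 16.1 and 17.7 FPKM in DMSO and at 27.1 and 24.4 FPKM in 5C, groups that did not overlap but whose difference of 0.53 ± 0.17 (log2) missed the threshold (adjusted p = 0.0871). In 5C-G it returned to 15.8 and 18.7 FPKM, overlapping with DMSO, with a log2 fold change of -0.43 ± 0.17 against 5C (adjusted p = 0.0790). The highest level was that of 5C-F, at 39.9 and 37.2 FPKM. That group was above 5C by 0.68 ± 0.17 (adjusted p = 0.0208), short of the fold threshold, and above DMSO by 1.22 ± 0.18 (adjusted p = 0.000249), which is a call. In 5C-C the level was 31.1 and 32.9 FPKM, above DMSO by 1.01 ± 0.18 (adjusted p = 0.000297), and above 5C by 0.48 ± 0.17 (adjusted p = 0.0397). The 5C-C call against DMSO lay at the edge of the fold threshold and was lost without DMSO A (0.98) and without 5C-C B (0.94). It was also lost with total counts only (0.92) and with limma on log2(FPKM + 1) (0.88) and log2(FPKM + 0.1) (0.92). The 5C-E libraries held 21.6 and 22.0 FPKM and the 5C-S library 31.6 FPKM. An antisense lncRNA, 4930500F10Rik, shares 2590 exon bases with Alas1 and held 18 counts in all. How reads in the shared bases were counted is not given, so reads of Alas1 may have been left out there.

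**Figure D3:**
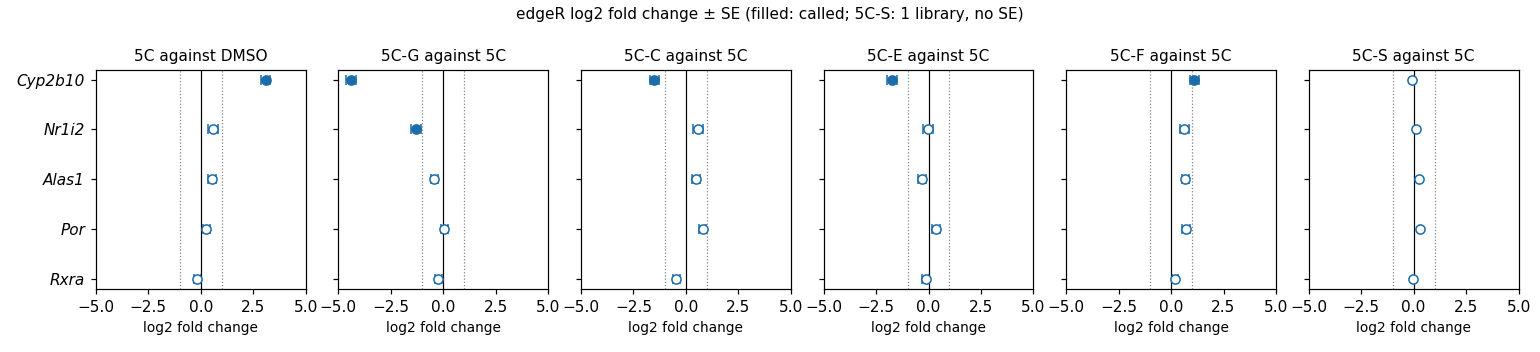
Log2 fold change (x axis) with its SE of 5 members in each comparison, from the edgeR fit. Filled points are calls and dotted lines mark a log2 fold of 1 in either direction. Cyp2b10 is filled in all 5 tested panels, from -4.39 in 5C-G against 5C to 3.08 in 5C against DMSO, and Nr1i2 is filled only in 5C-G against 5C. The 5C-S panel shows the single library without an error.

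Counted over the 7 members tested, the calls read as follows beside the share of all 19884 genes called in either direction. In 5C against DMSO, 1 member was higher, where 4.55% of genes were called. In 5C-G against 5C, 2 members were lower (Cyp2b10 and Nr1i2), where 13.1% of genes were called. In 5C-C against 5C, 2 were lower (Cyp2b10 and Cyp2b9) with 20.2% of genes called, so that comparison moved a large part of the transcriptome. In 5C-E against 5C, 1 was lower with 1.96% of genes called, and in 5C-F against 5C, 1 was higher with 4.84%. In 5C-S against 5C no member passed a log2 fold of 1, a mark that 18.9% of genes passed with this single library.

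The comparisons with DMSO share libraries with those above. In 5C-G, 1 member was lower than in DMSO (5.83% of genes called). In 5C-C, 4 were higher and 1 lower (22.1%), and in 5C-E, 1 was higher and 1 lower (6.09%). In 5C-F, 3 were higher (7.40%), namely Cyp2b10, Nr1i2 and Alas1. In 5C against DMSO the median log2 fold change of the 7 members was 0.53, beside 0.01 over all genes tested. Against 5C it was -0.55 in 5C-G and 0.68 in 5C-F, beside -0.01 for both over all genes. Removing the protein kinase D inhibitor gave -0.45 against 5C, and removing the AMPK activator -0.31. For the removals against DMSO the medians ran from -0.42 (5C-G) to 1.22 (5C-F). A median of 7 values is the value of 1 gene. The -0.55 was that of Nr1i3 (SE 1.26, adjusted p = 0.800), close to the limit of detection. The 0.53 and 0.68 were those of Alas1, not a call in either comparison. A shift of the set as a whole was not tested.

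The wider set of CAR and PXR targets was described by a list of 16 genes that leaves out the members. In 5C against DMSO, 10 of the 16 rose and none fell, where 4.55% of all genes were called, and the list median was 2.24 beside 0.01 over all genes. Cyp3a11, a steroid and drug hydroxylase, went from 0.625 ± 0.118 to 182 ± 13.1 FPKM (SD, n = 2), and Cyp2c29, an arachidonate epoxygenase, from 1.41 ± 0.373 to 167 ± 3.64 FPKM. Cyp2c55 went from 0.103 ± 0.00927 to 2.80 ± 0.131 FPKM. Cyp2b10 started from a higher level in DMSO than these 3 genes, and its fold change was the smallest of the 4. The transporter genes Abcb1a, Abcc2 and Abcc3 and the dehydrogenase gene Aldh1a1 were not called, and neither were the P450 genes Cyp3a13 (0.66, adjusted p = 0.0999) and Cyp2a5 (2.14, adjusted p = 0.198).

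Leaving out single compounds divided the targets. In 5C-G, 11 of the 16 fell against 5C and none rose, where 13.1% of all genes were called. Cyp2c29 fell with Cyp2b10, to 4.63 ± 0.270 FPKM (log2 fold change -5.03 ± 0.29, adjusted p = 1.50e-08), whereas Cyp3a11 fell by 1.98 ± 0.26 (adjusted p = 4.93e-05) and kept 41.9 ± 0.596 FPKM. Both remained higher than in DMSO, Cyp2c29 by 1.78 (adjusted p = 0.000819) and Cyp3a11 by 6.12 (adjusted p = 8.19e-09), whereas Cyp2b10 was lower. In 5C-C, where 20.2% of all genes were called, 7 fell and 1 rose, Cyp2a5, by 2.44 (adjusted p = 0.0256). The Cyp2a5 call was made in 8 of 14 settings, over which its value ran from 0.57 to 3.24. It was not made with the GC and length offset, with either limma fit, or without 5C A, 5C B or 5C-C A. In 5C-E, where 1.96% of all genes were called, 7 fell and none rose, and 4 fell when 5C A, 5C B or 5C-E B was left out. Cyp2c29 stood at 29.4 ± 1.34 FPKM in 5C-C and 40.7 ± 14.4 FPKM in 5C-E, and Cyp3a11 at 78.3 ± 10.5 and 89.4 ± 13.3 FPKM. In 5C-S, no target passed a log2 fold of 1 against 5C.

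Without forskolin the targets split in direction, with 2 called higher and 4 called lower against 5C, where 4.84% of all genes were called. Cyp2c29 rose like Cyp2b10, to 333 ± 88.0 FPKM (1.10 ± 0.24, adjusted p = 0.0105), and Cyp2c37 rose by 2.29 (adjusted p = 0.00660). Cyp3a11 fell to 31.8 ± 14.8 FPKM (-2.40 ± 0.26, adjusted p = 8.62e-05). With it fell the uptake transporter gene Slco1a4 by 2.13 (adjusted p = 0.000936), the esterase gene Ces2a by 1.91 (adjusted p = 1.94e-05) and the bilirubin-conjugating enzyme gene Ugt1a1 by 1.04 (adjusted p = 0.0290). The falls of Cyp3a11, Slco1a4 and Ces2a were calls in all 14 settings, with log2 fold changes of -3.04 to -1.97 for Cyp3a11. The rises of Cyp2c29 and Cyp2c37 kept their sign but were calls in 8 and 10 of the 14 settings. Neither was a call without 5C A, 5C B or 5C-F A, where Cyp2c29 came to 1.10, 1.10 and 0.75 and Cyp2c37 to 2.21, 2.39 and 1.56. Cyp2c29 was also not called with total counts only (0.99) or with limma on log2(FPKM + 1) (0.96) and log2(FPKM + 0.1) (0.97), nor Cyp2c37 with limma on log2(FPKM + 0.1) (2.05, adjusted p = 0.0525). The fall of Ugt1a1 was a call in 9 of the 14 settings, with values of -1.14 to -0.95, and was not a call without any 1 of the 4 libraries or with limma on log2(FPKM + 1). Cyp2b10 and Cyp3a11, the textbook targets of CAR and PXR, therefore moved in opposite directions, while the PXR transcript itself did not fall. The Cyp2c and Cyp3a genes belong to families of similar copies, and the counting may have split reads among them.

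**Figure D4:**
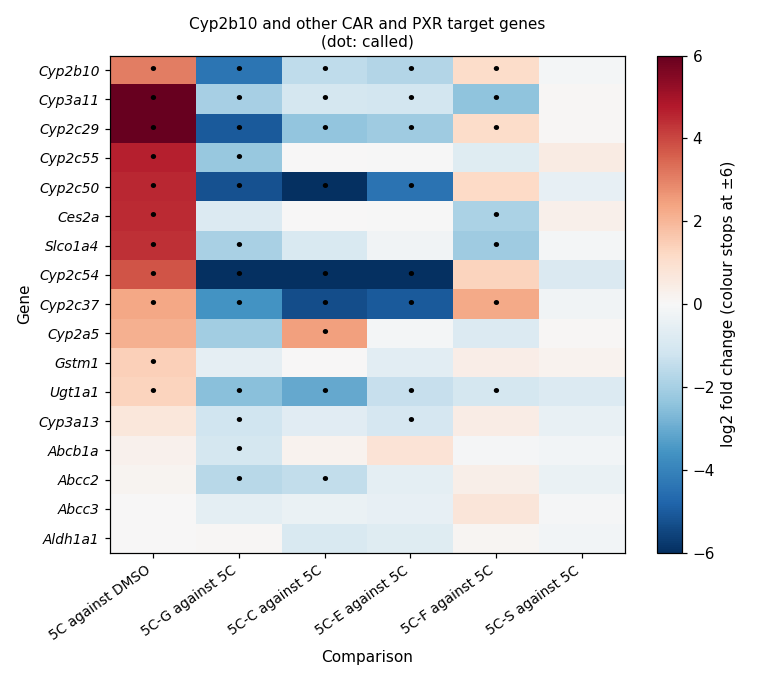
Log2 fold change (colour, red higher and blue lower) of Cyp2b10 and 16 other CAR and PXR target genes (rows) in 6 comparisons (columns). A dot marks a call, and the 5C-S column has 1 library and no calls. In 5C-F against 5C, Cyp2b10, Cyp2c29 and Cyp2c37 are red with a dot and Cyp3a11, Slco1a4, Ces2a and Ugt1a1 are blue with a dot. The deepest blue cells, of Cyp2c54, stand for libraries with almost no counts and are not exact.

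A further list held genes that act with the receptors. Of 12 receptor partners and coregulators, none was called in 5C against DMSO, 5C-E against 5C or 5C-F against 5C, 2 were lower in 5C-G, and 2 were higher and 5 lower in 5C-C. Of all genes tested, 13.1% were called in 5C-G against 5C and 20.2% in 5C-C against 5C. Hnf4a, a hepatocyte transcription factor that cooperates with CAR and PXR, stood at 20.1 ± 1.91 FPKM in 5C and 8.89 ± 1.03 FPKM in 5C-G (-1.05 ± 0.18, adjusted p = 0.000454). Rxrb, which encodes another RXR, rose in 5C-C from 7.66 ± 0.594 to 16.0 ± 0.829 FPKM (1.23 ± 0.22, adjusted p = 0.000494), in the group where Rxra was lowest. Of 6 genes for the retention of CAR in the cytoplasm and for EGFR signalling, only Rack1 in 5C-C was called (1.16, adjusted p = 0.000249). Hsp90ab1, a chaperone of cytoplasmic CAR, had its highest mean in 5C-F, at 719 ± 23.6 FPKM, beside 638 ± 1.14 FPKM in 5C.

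Like Alas1, the later enzymes of haem synthesis were not called in 5C against DMSO. None of the 7 listed was called there, nor in 5C-G, 5C-E or 5C-F against 5C, and 2 were higher in 5C-C, where 20.2% of all genes were called, namely Alad (1.06, adjusted p = 0.000720) and Urod (1.07, adjusted p = 0.000396). In 5C-F against 5C, Alad was at 0.70 (adjusted p = 0.0362) and Urod at 0.85 (adjusted p = 0.00998), short of the fold threshold as Alas1 was. Of 4 haem breakdown genes, none was called in 5C against DMSO. In 5C-G, where 13.1% of all genes were called, 3 of the 4 rose against 5C. They included haem oxygenase 1 (Hmox1), from 61.4 ± 0.0251 to 154 ± 0.425 FPKM (1.46 ± 0.17, adjusted p = 1.20e-05), and biliverdin reductase A (Blvra), by 1.23 (adjusted p = 0.000642). In 5C-C, 2 of the 4 rose, Blvra by 1.09 (adjusted p = 0.000895) and biliverdin reductase B (Blvrb) by 1.44 (adjusted p = 0.000269). Macrophage markers, given below by their summed level, were higher as well, 8 of 9 in 5C-G and 5 of 9 in 5C-C with 1 lower, and their part in these rises was not tested. Besides Por, 4 genes of microsomal electron transfer were listed and none was called in 5C against DMSO or in a removal against 5C. Pgrmc1, which binds haem and P450s, had its highest mean in 5C, at 355 ± 19.0 FPKM.

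A comparison list outside these receptors held 8 genes of the aryl hydrocarbon receptor (AHR) pathway. In 5C against DMSO, 2 were higher and 1 lower, where 4.55% of all genes were called. Cyp1a2, a hepatocyte P450, rose from 0.658 ± 0.0293 to 5.37 ± 0.156 FPKM (2.95 ± 0.34, adjusted p = 1.23e-05) and Nqo1 by 1.52 (adjusted p = 0.0140), whereas Cyp1b1, a P450 of non-parenchymal cells, fell by 1.34 (adjusted p = 0.00101). Among the removals, Cyp1a2 stood at 0.404 ± 0.107 FPKM in 5C-C, at 1.06 ± 0.0512 FPKM in 5C-E (-2.41 against 5C, adjusted p = 0.000274), at 2.07 ± 0.104 FPKM in 5C-G and at 5.89 ± 1.06 FPKM in 5C-F. It was thus lowest in 5C-C, whereas Cyp2b10 was lowest in 5C-G.

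Because Cyp2b9 and Cyp2b13 are typical of female liver, other sex-biased liver genes were set beside them. Of 10 listed, 7 could be tested. In 5C against DMSO the male-typical genes Mup20 (3.44, adjusted p = 4.42e-05) and Cyp7b1 (1.64, adjusted p = 0.00124) were higher. Xist, expressed from the inactive X chromosome of female cells, was present in every library at 3.42 to 23.5 FPKM. It was lower than in 5C by 1.66 in 5C-G (adjusted p = 0.00366) and by 1.62 in 5C-C (adjusted p = 0.00275). In 5C-E, where Cyp2b9 had no count, Xist stood at 19.4 ± 5.24 FPKM (-0.11 against 5C, adjusted p = 0.941), and in 5C-F, where Cyp2b9 was highest, at 8.68 ± 3.70 FPKM (-1.12, adjusted p = 0.0600). Mup20, 1 of a family of similar genes among which the counting may have split reads, fell against 5C, with log2 fold changes of -2.37 in 5C-G (adjusted p = 0.000643), -4.67 in 5C-C (adjusted p = 6.89e-06) and -5.52 in 5C-E (adjusted p = 5.41e-06). Cyp7b1 was lower in 5C-G (-1.08, adjusted p = 0.00991) and was not called in the other tested removals. The share of cells from female mice was not labelled, and its part in the Cyp2b9 counts was not tested.

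The RNA came from whole cultures, so fewer hepatocytes and less RNA per hepatocyte cannot be told apart. All 8 hepatocyte markers were detected in every library, which fits the label, and their summed level was 11012 to 11024 FPKM in 5C and 10971 to 12200 FPKM in DMSO. It was 17346 to 21820 FPKM in 5C-F, 6909 to 8236 FPKM in 5C-G, 4705 to 5130 FPKM in 5C-C and 3184 to 3695 FPKM in 5C-E, with 7199 FPKM in 5C-S. Most of this sum was Alb, given below. Of the 8 markers, 2 were called lower in 5C against DMSO, where 4.55% of all genes were called. Against 5C, 2 were higher and 3 lower in 5C-G, where 13.1% of all genes were called. In 5C-C 3 were lower (20.2% of all genes called), in 5C-E 5 were lower (1.96%) and in 5C-F 3 were higher (4.84%). The markers of macrophages were also present, with a summed level of 2157 to 2199 FPKM in DMSO, 235 to 254 FPKM in 5C, and 2674 to 4224 FPKM in 5C-G. It was 620 to 1087 FPKM in 5C-C, 368 to 476 FPKM in 5C-E, 760 to 1040 FPKM in 5C-F and 322 FPKM in 5C-S. The Kupffer cell marker Clec4f was at 0 in 3 libraries, 5C A, 5C-E B and 5C-S. Against DMSO, 8 of 9 macrophage markers were lower in 5C, and against 5C, 8 of 9 were higher in 5C-G, the groups where Cyp2b10 was high and low. Against 5C, 5 were higher and 1 lower in 5C-C, none was called in 5C-E and 7 were higher in 5C-F. The shares of all genes called in these comparisons are those given for the hepatocyte markers. The part of these cells in the Cyp2b10 differences was not tested. Markers of stellate cells and fibroblasts summed to 1349 to 1360 FPKM in 5C. They were highest in 5C-G, at 1880 to 2292 FPKM, and lowest in 5C-F, at 838 to 900 FPKM, the groups where Cyp2b10 was lowest and highest, and their part was not tested. Those of cholangiocytes summed to 121 to 134 FPKM in 5C and 275 to 300 FPKM in 5C-C, the highest of the groups. Those of liver endothelial cells summed to 78.0 to 89.4 FPKM in DMSO, 12.5 to 13.8 FPKM in 5C and 9.34 to 45.2 FPKM in the removals. Pecam1 and Cdh5 were both at 0 in the libraries of 5C and 5C-F and in 5C-C B, and 1 of them was at 0 in DMSO B, 5C-G A and 5C-G B.

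After these values had been seen, Cyp2b10 was expressed relative to hepatocyte genes in each library. Per 1000 FPKM of albumin (Alb) there were 9.36 and 8.27 FPKM of Cyp2b10 in 5C and 1.02 and 1.01 FPKM in DMSO. The ratio was 0.865 and 0.812 in 5C-G. It was 7.22 and 10.6 in 5C-C, 11.3 and 10.2 in 5C-E, and 10.6 and 10.4 in 5C-F, with 15.3 in 5C-S. On this scale the libraries formed a low set, DMSO and 5C-G, and a high set with the other groups, with 5C-C overlapping 5C and the libraries of 5C-E, 5C-F and 5C-S lying above it. No test was made on these ratios. Alb itself fell, from 9437 and 9425 FPKM in 5C to 3433 and 2553 FPKM in 5C-C (adjusted p = 4.60e-05) and to 2719 and 2122 FPKM in 5C-E (adjusted p = 9.45e-06). In 5C-G it stood at 4136 and 4482 FPKM, with a log2 fold change of -0.99 against 5C (adjusted p = 0.00126), and in 5C-F at 18255 and 13341 FPKM (0.85, adjusted p = 0.0106), both short of the fold threshold. The 5C-S library held 5143 FPKM of Alb. The choice of reference mattered, since Hnf4a, a hepatocyte gene, was not called in 5C-C, 5C-E or 5C-F. Relative to Hnf4a the ratio was 4.12 and 4.16 in 5C, 1.42 and 2.02 in 5C-C, 1.84 and 1.25 in 5C-E, and 8.07 and 4.37 in 5C-F. The 5C-S library, the highest relative to Alb, was at 3.94 here, below both 5C libraries. Per 1000 FPKM of the summed hepatocyte markers there were 8.01 and 7.08 FPKM of Cyp2b10 in 5C, 0.811 and 0.793 FPKM in DMSO, and 0.518 and 0.442 FPKM in 5C-G. On that scale 5C-C, at 4.83 and 5.76, lay below 5C, and 5C-E, at 8.30 and 6.78, overlapped with it. The 5C-F libraries, at 8.91 and 7.99, overlapped with 5C as well, although they lay above 5C relative to Alb and to Hnf4a. The 5C-S library held 10.9. On all 3 scales 5C lay above DMSO and 5C-G below 5C. Between 5C-G and DMSO the scales differed. The 5C-G libraries lay below DMSO relative to Alb and to the marker sum, but relative to Hnf4a, itself lower in 5C-G, they overlapped with it, with mean ratios of 0.409 ± 0.0527 in 5C-G (0.372 and 0.446) and 0.470 ± 0.0431 in DMSO (SD, n = 2).

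**Figure D5:**
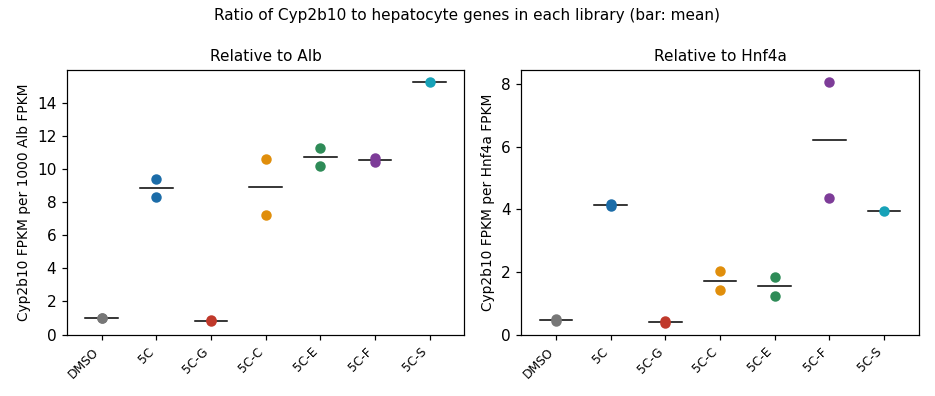
FPKM of Cyp2b10 per 1000 FPKM of Alb (left) and per FPKM of Hnf4a (right) in each library (points) with the group mean (bar). DMSO and 5C-G are low in both panels, at about 1 or less, and overlap on the right. On the left, 5C-C (7.22 and 10.6) overlaps with 5C and 5C-E (10.2 and 11.3) lies above it, whereas on the right both lie below 5C (1.25 to 2.02).

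Across the 13 libraries, the log2 expression of Cyp2b10 had a Pearson correlation of 0.805 with Nr1i2, 0.783 with Alas1, 0.492 with Por, 0.331 with Rxra and 0.166 with Nr1i3. These figures describe libraries that share their groups and are not independent points. The tested genes most like Cyp2b10 by this measure were Optn (0.943), Grb14 (0.938) and Zfp180 (0.937). Those most like Nr1i2 were Cldn6 (0.951), Eprn (0.945) and Pamr1 (0.942). Those most like Nr1i3 were Tm4sf5 (0.905), Mterf3 (0.899) and Npas4 (0.890), a likeness to a gene of at most 29 counts.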

How the data were processed

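RNA-seq of cultured mouse dHeps gave 13 libraries in 7 groups, taken from the sample labels. The authors prepared libraries with a NEBNext Ultra kit, sequenced paired-end reads, mapped them to GRCm39 and deposited raw counts per gene and FPKM per gene. The submitters' processing notes name featureCounts, Subread and DESeq2, without versions. The strand setting and the annotation release are not given in the sources used here. Deposited FPKM equalled the count divided by 1 gene length and the library total, within 0.2%, for 27140 of 27141 genes. Total counts were 30195867 to 45491932 per library. Library letters A and B follow column order and pair nothing across groups. The study's methods call replicates separate biological ones, but neither they nor the labels say which animals or cultures the libraries of a group came from, so p-values measure only the spread between these libraries.

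Counts were tested with edgeR 4.0.16 in R 4.3.3 (TMM factors, filterByExpr with a minimum count of 10, glmQLFit and glmQLFTest) in 1 fit of all 13 libraries with group means, 6 residual degrees of freedom and a common biological coefficient of variation (BCV) at 0.261. DESeq, named in the study's methods, was replaced by edgeR. A call needed a Benjamini-Hochberg adjusted p under 0.05 over 19884 genes and a log2 fold change beyond 1. The 5C-S group has no p. Levels are deposited FPKM, as mean ± SD over 2 libraries. A group with at most 3 counts in every library was set to that floor per library, which covers counting error only. The fits were tested on simulated data.

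The members and lists were chosen with earlier results of these data known. Named beside the members were, of each list, up to 3 genes with the largest change among those called in 5C against DMSO, or otherwise the 2 most abundant. Cyp2a5, Cyp3a13, Cyp2c37, Blvrb, Slco1a4, Ces2a and Ugt1a1, and the transporter and Aldh1a1 genes, were named after their values were seen, to account for calls of their list. The genes most like a member were ranked by Pearson correlation of log2 CPM (prior count 2). Ddx3y, Eif2s3y, Kdm5d and Uty were not analysed here. A further gene of the sex-biased list is not reported here. Sequences came from GRCm39 with the GENCODE M39 annotation, aligned with edlib in Python 3.11.15. Alternatives were total counts only, DESeq2 1.42.0, no filter, limma 3.58.1 on log2(FPKM + 1) and log2(FPKM + 0.1), fits of the compared groups only, fits without each library, a GC content and length offset, a log2 fold threshold of 0.5 and summed Cyp2b counts.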

Additional observations from a re-analysis of the deposited data

How the results depend on the processing

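The Cyp2b10 calls held in every alternative and in every fit without 1 library, except in 5C-F against 5C. That log2 fold change was 0.97 and 0.98 with limma on log2(FPKM + 1) and log2(FPKM + 0.1), 0.86 with the GC content and length offset, and 0.79 to 1.37 in fits without 1 library, with adjusted p-values of 1.93e-06 to 0.0801 over all settings. No paired analysis was possible because the numbers 1 and 2 in the names of the library columns could not be matched to single samples, and no label ties libraries of different groups to each other.

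The number of genes called over the whole table moved with the setting. In 5C-F against 5C, 534 of 19884 genes were higher and 428 lower in the fit used above. At a log2 fold threshold of 0.5 these were 1130 and 990, and with limma on log2(FPKM + 1) they were 184 and 157. A moved count of members cannot be told apart from this general change. The number of members called moved as follows. In 5C-F against 5C it was 0 with both limma fits and the GC content and length offset, 3 at a log2 fold threshold of 0.5, and 0 to 1 without 1 library. In 5C-C against 5C it was 1 with limma on log2(FPKM + 1), and without 5C-C B it was 2 as in the fit of all libraries, with Nr1i3 in place of Cyp2b9. In 5C-G against 5C it was 3 without 5C-G A, where Cyp2b9 was added. In 5C-E against 5C it was 2 with no filter, with the offset and with 2 groups only. In 5C-G against DMSO it was 2 with the offset and 1 to 2 without 1 library. In 5C-C against DMSO it was 3 with total counts only, 1 and 3 with limma, 3 with the offset and 3 to 5 without 1 library. In 5C-E against DMSO it was 1 with total counts only, both limma fits and every fit without 1 library. The 5C-C call of Cyp2b9 against 5C and against DMSO was lost without 5C-C B, with adjusted p-values of 0.0555 and 0.0891, and the 5C-E call against DMSO was lost without any 1 of its 4 libraries.

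Small differences changed sign. In Por, 5C-G against 5C was -0.0926 with total counts only, -0.00908 with no filter, -0.0843 and -0.0857 with limma, -0.344 with the offset and -0.12 to 0.18 without 1 library. In Nr1i2, 5C-E against 5C was 0.0407 with total counts only, 0.0302 and 0.0330 with limma, and -0.23 to 0.18 without 1 library. In Rxra, 5C against DMSO was 0.0588 with the offset, and 5C-F against DMSO was -0.00346 with total counts only, -0.0154 and -0.0164 with limma and -0.14 to 0.15 without 1 library. Without 1 library, Nr1i3 ran from -0.14 to 0.92 in 5C against DMSO, -0.72 to 0.21 in 5C-F against 5C, -0.35 to 0.62 in 5C-F against DMSO and -0.63 to 0.37 in 5C-G against DMSO. In 5C-G against DMSO, Alas1 ran from -0.13 to 0.30, and Cyp2b9 from -6.92 to 0.0274. The causes were not tested.

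The number of genes called over the whole table ranged over the settings from 569 to 1371 in 5C against DMSO, 1376 to 5034 in 5C-G, 2172 to 6978 in 5C-C, 138 to 642 in 5C-E and 294 to 2120 in 5C-F against 5C. A fit that leaves a group with 1 library assumes that it varies like the other groups. Depth limits Nr1i3, Cyp2b9 and Cyp2b13.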
